A study of Mus musculus with 12 samples.

Results

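NIH3T3 mouse fibroblasts held in difluoromethylornithine (DFMO) for 96 h were compared with the same cells held in it for only 12 h or 24 h. Of the 12 arrays in the series, 7 enter this comparison, chosen by their titles: 2 of 96 h on the long side, and 2 of 12 h and 3 of 24 h on the short side. Every one of the 7 carried 1 mM DFMO, so neither side is an untreated control. The 2 arrays of 48 h and the 3 of untreated cells serve only as outside reference points. NIH3T3 is an established line of immortal embryonic fibroblasts. Per the labels, the drug went in a day after seeding, and RNA came from the G1 fraction collected by sorting. The purity of that fraction is not stated in the labels. Time in the drug is also time in the dish. Late untreated cultures were not analysed here, so exposure, culture age and cell density cannot be told apart. The labels call the arrays biological replicates without naming separate cultures, so p-values measure the spread between these arrays, which may be technical.

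DFMO blocks ornithine decarboxylase, the source of putrescine, from which cells build spermidine and spermine. These polyamines bind nucleic acids and are needed for proliferation, and spermidine also supplies the hypusine residue of the translation factor eIF5A. Cells carry a store of polyamines into the treatment and dilute it as they grow and divide.

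Within each side the arrays were alike. Across 19938 genes, pairs of short arrays correlated at r of 0.994 to 0.997 and the 96 h pair at 0.996, whereas a 96 h and a short array correlated at 0.966 to 0.973. Between 8 and 71 genes differed at least 2-fold within a short pair, 26 within the 96 h pair, and 1008 to 1403 between a 96 h and a short array. On the first principal component of all 12 arrays, which held 65.5% of the variance, the 96 h arrays lay at 54.6 and 53.8, the 48 h arrays at 7.7 and 9.9 and the short arrays between -20.6 and -13.0. Untreated arrays lay between -19.1 and -14.8, among the short ones. The 24 h arrays did not separate from the 12 h arrays: limma called 0% of genes between these times at an adjusted p under 0.05. The smallest adjusted p was 0.9998, and 282 genes (1.41%) had an unadjusted p under 0.05. The comparison takes the 5 short arrays as 1 side, and any difference between 12 h and 24 h counts as spread.

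Long exposure set 22% of the genes apart. By limma 4393 of 19938 genes differed at an adjusted p under 0.05 (a gene past this threshold is named called here), 2322 higher (11.6%) and 2071 lower (10.4%) at 96 h. The median fold of the called genes was 1.53 for those higher and 1.6 for those lower, and the largest differences were falls. The share was larger away from the floor. A fit of only the 8694 genes with a mean of at least 5 on 1 side called 2216 of them higher and 2120 lower. Of all 19938 genes 11244 lay under 5 on both sides, so 22% is a low yardstick for lists with few such genes. At least 2-fold differences in the main fit numbered 398 higher (2%) and 574 lower (2.88%), at least 4-fold ones 23 and 178, and at least 8-fold ones 7 and 60. Both 96 h arrays lay above all 5 short arrays for 21.3% of the genes tested and below all 5 for 15.7%. Among called genes that was so for 2321 of 2322 higher and all 2071 lower. Each array is a bulk measurement, so fewer cells of a kind and less RNA per cell cannot be told apart. The 96 h side rests on 2 arrays: without its replicate 1 the counts were 1329 higher and 1323 lower, and without its replicate 2 they were 1528 and 1237.

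**Figure D1:**
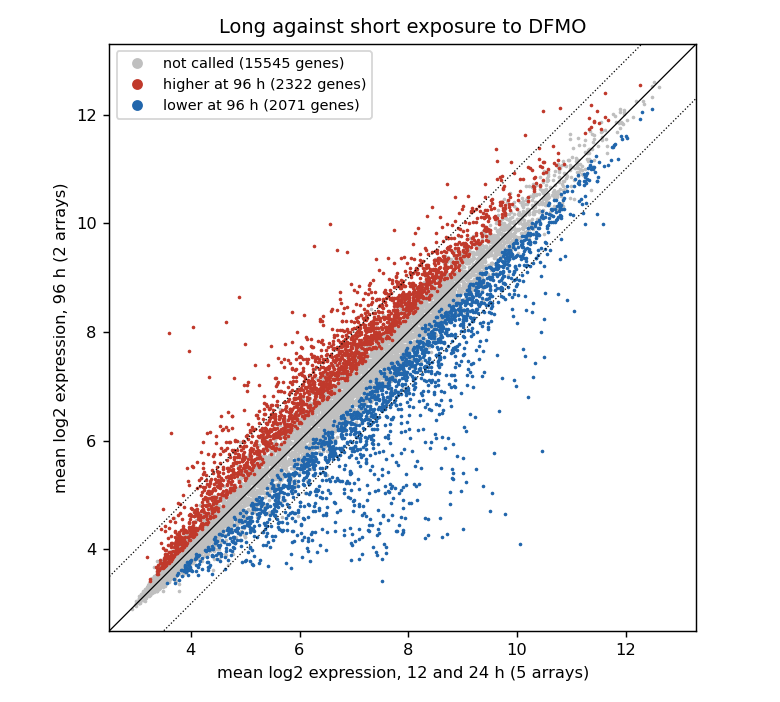
Mean log2 expression of 19938 genes on the 2 arrays of 96 h (vertical axis) against the mean on the 5 arrays of 12 h and 24 h (horizontal axis), with 2322 genes called higher in red, 2071 called lower in blue and the others in grey; the solid line marks equal levels and the dotted lines a 2-fold difference. The blue points reach much farther from the line than the red ones, with 178 genes at least 4-fold lower against 23 at least 4-fold higher.

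The largest falls were of genes of DNA replication and mitosis, and genes of cholesterol synthesis fell nearly as a whole list, by smaller amounts. Stretches of promoters from these 3 groups are shown because the groups are known to be read through short shared elements: E2F sites in S phase genes, the cell cycle homology region (CHR) in mitotic genes and CCAAT boxes in many cholesterol genes. Each line gives the 150 bases before the start in RefSeq's annotation of GRCm38.p6, 5′ to 3′ on the gene's strand. Capitals mark matches on either strand to the 1 motif named for that gene. Matches to the other motifs stay in lower case, such as an E2F match directly before the marked CHR letters of Kif15. The E2F letters TTTNNCGC are marked for Mcm6 (chr1:128359706-128359855, minus strand), Uhrf1 (chr17:56303187-56303336, plus) and Cdc6 (chr11:98908001-98908150, plus). The CHR letters TTTGAA are marked for Kif15 (chr9:122950931-122951080, plus), and the letters CCAAT for Idi1 (chr13:8885456-8885605, plus) and Cyp51 (chr5:4104698-4104847, minus). The stretches printed were picked from those that hold a match. The same stretch of Pclaf, Bub1, Tk1 and Asf1b and that of another listed start of Uhrf1 held 0 matches to the E2F letters, and that of Aspm held 0 to the CHR letters.
Mcm6: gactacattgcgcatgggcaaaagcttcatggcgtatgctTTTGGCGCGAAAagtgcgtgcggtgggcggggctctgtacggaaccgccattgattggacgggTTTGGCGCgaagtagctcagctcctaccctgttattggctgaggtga
Uhrf1: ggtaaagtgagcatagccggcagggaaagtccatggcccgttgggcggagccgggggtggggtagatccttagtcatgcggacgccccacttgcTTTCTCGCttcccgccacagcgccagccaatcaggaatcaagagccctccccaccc
Cdc6: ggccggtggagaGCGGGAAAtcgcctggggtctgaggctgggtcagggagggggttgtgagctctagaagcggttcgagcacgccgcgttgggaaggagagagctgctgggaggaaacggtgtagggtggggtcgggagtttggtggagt
Kif15: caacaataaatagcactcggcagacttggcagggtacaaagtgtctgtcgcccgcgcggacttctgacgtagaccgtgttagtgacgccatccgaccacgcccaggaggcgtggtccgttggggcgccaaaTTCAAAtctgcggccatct
Idi1: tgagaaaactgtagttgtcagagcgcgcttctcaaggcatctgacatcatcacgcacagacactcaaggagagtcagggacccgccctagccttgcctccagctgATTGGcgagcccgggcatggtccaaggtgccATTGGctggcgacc
Cyp51: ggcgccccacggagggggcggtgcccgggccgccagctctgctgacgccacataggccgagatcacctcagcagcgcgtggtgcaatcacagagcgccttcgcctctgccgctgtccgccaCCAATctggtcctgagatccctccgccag

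Over windows from 250 bases before to 50 after the start, available for 15614 of the 19938 genes, the E2F letters occurred for 7.55% of genes. They occurred for 19 of 43 replication genes (44.2%), 7 of 48 mitosis genes (14.6%) and 5 of 8 of the 10 largest falls with a window. The CHR letters occurred for 17.3% of all genes, for 35 of 48 mitosis genes (72.9%) and for 7 of 43 replication genes (16.3%). The letters CCAAT were found for 41.7% of all genes and for 16 of 16 cholesterol genes. They were also frequent in other lists: 33 of 48 mitosis genes (68.8%), 28 of 43 replication genes (65.1%) and 15 of 23 p53 targets (65.2%). The classical sterol regulatory element, searched in 1 fixed spelling, was found for 0 of the 16 cholesterol genes and 0.064% of all. Matches are letters in a window, not measured binding.

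DNA replication and S phase genes fell almost without exception. Of 54 measured, 53 fell and 0 rose, with a median log2 difference of -2.61 against 0.02 over all genes tested. The member that was not called was E2f2, a transcription factor of the S phase programme, at -0.27. Pclaf, a PCNA-associated factor of replication and repair, had log2 levels of 9.81 and 10.31 at 12 h and 10.09, 9.94 and 10.14 at 24 h, and of 4.06 and 4.13 at 96 h. Its 96 h arrays lay far below every short array, a fall of 5.97 ± 0.12 on the log2 scale (SE, 62.6-fold, limma adjusted p = 5.55e-07, n = 2 against 5). Mcm6, a subunit of the replicative helicase whose promoter is printed above, read 10.36 and 10.48 at 12 h, 10.47, 10.54 and 10.42 at 24 h, and 5.85 and 5.76 at 96 h. The sides were again far apart, and Mcm6 fell by 4.65 ± 0.06 (25.1-fold, adjusted p = 1.53e-07).

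Other genes of the replication machinery followed the same course. Mcm5, a partner of Mcm6 in the helicase, went from a mean of 9.55 ± 0.11 (SD, n = 5) to 5.04 ± 0.07 (SD, n = 2), and fell 22.7-fold. Cdc6, which loads that helicase at origins, stood at 7.42 and 7.66 at 12 h, 7.39, 7.65 and 7.47 at 24 h, and 3.26 and 3.57 at 96 h, 17.2-fold lower. Tk1, the thymidine kinase of nucleotide salvage, fell by 4.39 ± 0.16, and Asf1b, a chaperone that delivers histones to new DNA, by 4.21 ± 0.11. Uhrf1, which recognises hemimethylated DNA behind the fork, fell by 5.14 ± 0.12 (35.2-fold). Levels near 4 lie close to the array's floor, where 11244 genes lay under 5 on both sides, so folds down to such levels are understated.

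Mitosis and G2/M genes moved as far. Of 57 measured, 56 fell and 0 rose, with a median of -2.76, and Spc25, a kinetochore protein, was not called at -0.78. Ccna2, the cyclin A2 of S phase and G2, had levels of 9.48 and 9.77 at 12 h, 9.68, 9.09 and 9.47 at 24 h, and 4.63 and 4.77 at 96 h, a fall of 4.80 ± 0.17 (27.8-fold, adjusted p = 3.89e-06). Bub1, a kinase of the spindle checkpoint, read 8.80 and 9.23 at 12 h, 9.07, 8.91 and 8.98 at 24 h, and 4.37 and 4.39 at 96 h. Every short array stood well above both 96 h arrays, and Bub1 fell 24.5-fold. Kif15, a spindle kinesin, fell by 3.08 ± 0.06, Aspm, a spindle pole protein, by 2.92 ± 0.05, and Tpx2, which builds spindle microtubules, by 2.90 ± 0.05. Pbk, a mitotic kinase, fell by 4.43 ± 0.12. The counts in both proliferation lists varied little when any of the 7 arrays was left out, between 52 and 54 for replication and 54 and 57 for mitosis.

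**Figure D2:**
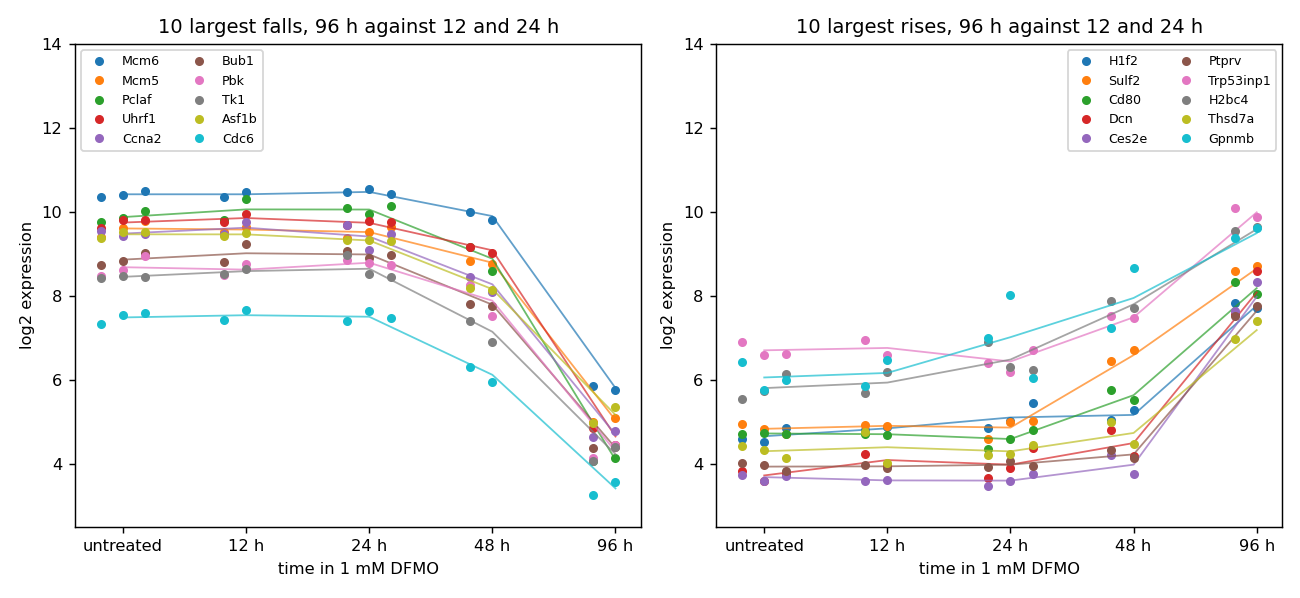
Log2 expression on each of the 12 arrays (points) and group means (lines) for the 10 genes with the largest fall (left) and the 10 with the largest rise (right) at 96 h against 12 h and 24 h, by time in 1 mM DFMO, with untreated cells at the far left. At 48 h the fallen genes stood below the short mean by 0.56 (Mcm6) to 1.48 (Tk1) on the log2 scale, which is a smaller step than the one from 48 h to 96 h in each of the 10.

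Regulators of the cell cycle's start divided. Of 25 genes for CDK inhibitors, D cyclins, pocket proteins and their partners, 5 rose and 8 fell, with a median of -0.16. That is 52% called, against 22% of all genes tested, with 4 of the 25 under 5 on both sides. Skp2, the ubiquitin ligase subunit that marks p27 for destruction, fell from 7.28 ± 0.19 (SD, n = 5) to 5.03 ± 0.03 (SD, n = 2), a log2 fall of 2.25 ± 0.13 (SE, adjusted p = 3.29e-05). Rbl1, the pocket protein p107, fell by 1.89 ± 0.11, and E2f8, a repressor of the E2F family, by 2.42 ± 0.18. Foxo3, a transcription factor of quiescence and stress, went the other way, from 6.53 to 6.75 on the short arrays to 7.95 and 7.62 at 96 h, a rise of 1.16 ± 0.10. Rbl2, the p130 pocket protein that dominates in resting cells, rose by 0.77, and Ccnd2, cyclin D2, by 0.98, both picked after their values were seen. Without 96 h replicate 2 the risen members numbered 3.

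Histone genes split as well, with 5 higher and 7 lower of 20 (60% called, against 22% of all genes tested). Of the 20, 7 lay under 5 on both sides. H2bc4, which encodes an H2B protein, read 5.69 and 6.18 at 12 h, 6.90, 6.31 and 6.24 at 24 h, and 9.54 and 9.64 at 96 h, a rise of 3.32 ± 0.27 (10.0-fold, adjusted p = 0.000189). H1f2, a linker histone gene, rose by 2.77 ± 0.17 and H2aj, an H2A variant, by 1.53 ± 0.12. H2ax, the variant phosphorylated at DNA breaks, fell by 1.38 ± 0.09. Histone genes are near copies of each other, so which copy a probe set reports is uncertain. Without 96 h replicate 2 the fallen ones numbered 4.

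Targets of p53, the transcription factor that answers DNA damage and other stress, were higher. Of 31 measured, 24 rose and 2 fell, with a median of 0.99. The 24 were 77.4% of the list, against 11.6% of all genes tested called higher. Trp53inp1, a p53-induced nuclear protein, had levels of 6.94 and 6.58 at 12 h, 6.40, 6.19 and 6.72 at 24 h, and 10.10 and 9.88 at 96 h. All short arrays lay at least 2-fold below both 96 h arrays, and the rise was 3.42 ± 0.19 (10.7-fold, adjusted p = 3.24e-05). Cd80, best known as a costimulatory ligand of immune cells, read 4.72 and 4.69 at 12 h, 4.36, 4.60 and 4.81 at 24 h, and 8.32 and 8.05 at 96 h, a rise of 3.55 ± 0.13. Ercc5, a nuclease of nucleotide excision repair, rose by 1.73 ± 0.07. Mdm2, the ubiquitin ligase that holds p53 down, rose by 2.01 and was picked after its value was seen. Sesn1, a stress protein of the sestrin family, fell by 0.80 ± 0.19, but was no longer called without 96 h replicate 1 (-0.81, adjusted p = 0.119) or replicate 2 (-0.79, 0.117). The risen targets numbered 19 to 24 with any 1 array left out, and the 2 fallen ones 0 without either 96 h array and 1 without 12 h replicate 1 or 24 h replicate 1 or 3. Cdkn1a, the p21 gene and a main p53 target, is not measured here because its cluster carries several symbols.

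The remaining large rises were of mixed function. Ces2e, a carboxylesterase, read 3.59 and 3.62 at 12 h, 3.46, 3.59 and 3.75 at 24 h, and 7.63 and 8.33 at 96 h, a rise of 4.38 ± 0.17 (20.8-fold, adjusted p = 5.34e-06). Dcn, the matrix proteoglycan decorin, read 4.23 and 3.95 at 12 h, 3.67, 3.89 and 4.38 at 24 h, and 7.57 and 8.60 at 96 h, a rise of 4.06 ± 0.29. Both left the floor of the array, so their folds are understated. Sulf2, an extracellular enzyme that trims heparan sulfate and a member of the p53 and matrix lists, rose by 3.77 ± 0.11. Ptprv, a receptor-type tyrosine phosphatase, rose by 3.68 ± 0.08, and Thsd7a, a membrane protein with thrombospondin repeats, by 2.85 ± 0.20. Gpnmb, a glycoprotein of lysosomes and the cell surface, spread from 5.85 to 8.02 on the short arrays against 9.37 and 9.62 at 96 h. Its rise of 2.82 ± 0.54 lost its call without 96 h replicate 1 (2.94, adjusted p = 0.0587) or replicate 2 (2.70, 0.0729).

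Cholesterol synthesis genes formed the third group to fall nearly whole. Of 20 measured, 19 fell and 0 rose, with a median of -1.88, and between 17 and 20 fell with any 1 array left out. Tm7sf2, a sterol reductase, was not called at -0.86. Idi1, the isomerase of isopentenyl diphosphate, had levels of 10.59 and 10.61 at 12 h, 10.13, 10.28 and 10.05 at 24 h, and 7.27 and 7.60 at 96 h. The 24 h arrays were all slightly below the 12 h arrays and far above those of 96 h, and Idi1 fell by 2.90 ± 0.18 (7.45-fold, adjusted p = 5.12e-05). Cyp51, the lanosterol demethylase, fell by 2.44 ± 0.16 and Fdps, farnesyl diphosphate synthase, by 2.08 ± 0.14. The list's median difference between 24 h and 12 h was -0.36, against -0.05 for both proliferation lists, with 0 genes called between those times.

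Fatty acid genes shared part of this fall. Of 18 measured, 9 fell and 2 rose, with a median of -0.55. That is 61.1% called, against 22% of all genes tested, with 2 of the 18 under 5 on both sides. Elovl6, an elongase of long-chain fatty acids, read 9.21 and 9.43 at 12 h, 8.82, 9.23 and 8.78 at 24 h, and 7.12 and 6.94 at 96 h, a fall of 2.06 ± 0.18 (adjusted p = 0.00028). Scd1, a desaturase, fell by 0.83 ± 0.10 and Fads2, another, by 1.11 ± 0.13. Lpin1, a phosphatidate phosphatase and transcriptional coactivator, rose by 0.70 ± 0.12. The 2 risen members numbered 1 without 96 h replicate 1 and 1 without replicate 2.

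**Figure D3:**
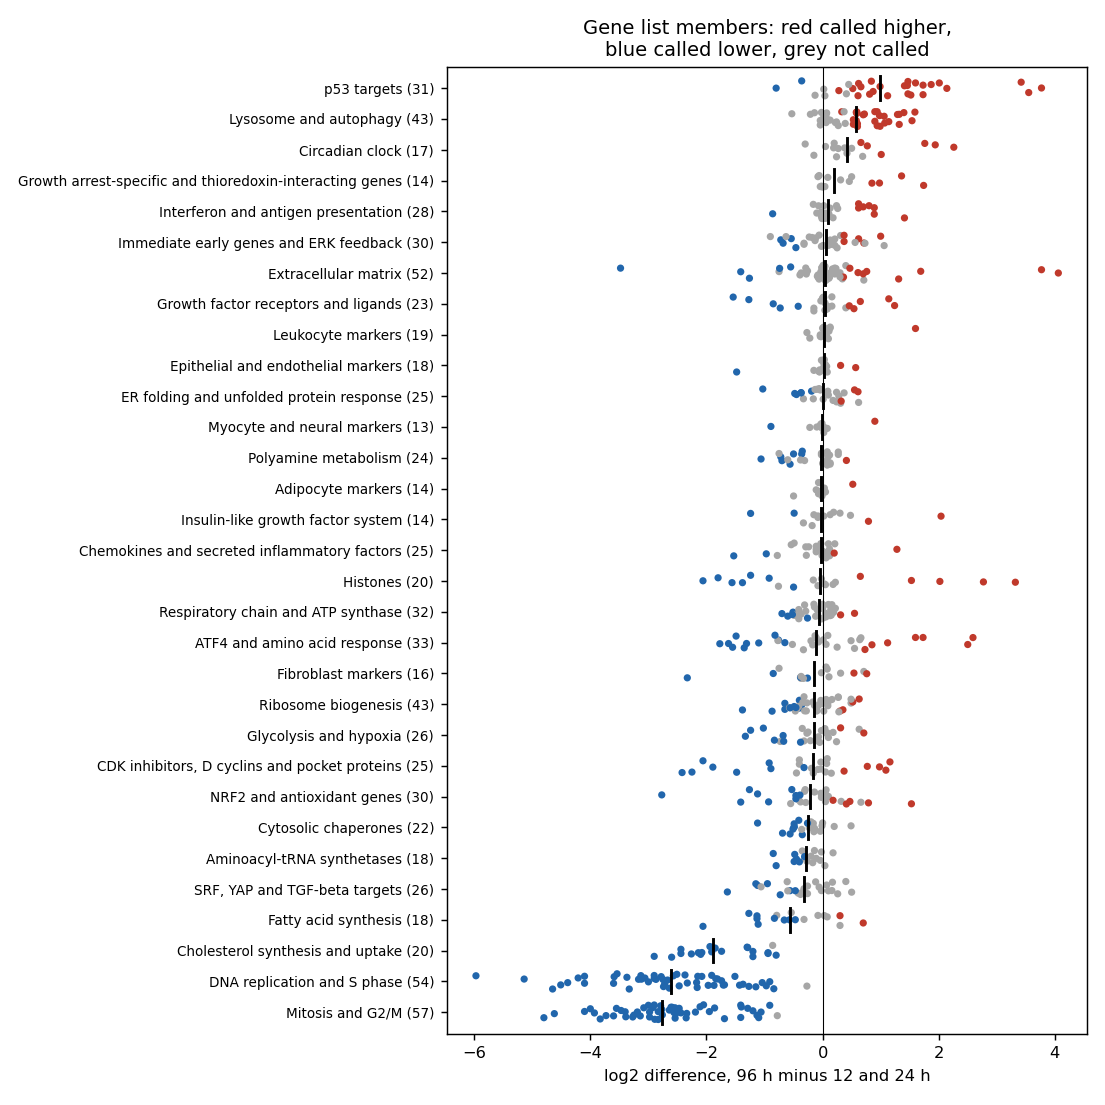
Log2 difference between 96 h and 12 h with 24 h (horizontal axis) for each measured member of 31 gene lists (rows, with the number measured in brackets), where points are genes, red called higher, blue called lower and grey not called, and black bars mark the list medians. The mitosis, replication and cholesterol rows lie almost wholly to the left (medians -2.76, -2.61 and -1.88), the p53 and lysosome rows mostly to the right (0.99 and 0.58), and the other medians lie between -0.55 and 0.42.

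The amino acid response list, genes that the transcription factor ATF4 turns on when amino acids are short or eIF2 alpha is phosphorylated, moved in opposite ways. Of 33 measured, 7 rose and 10 fell, with a median of -0.11. That is 51.5% called, against 22% of all genes tested, with 3 of the 33 under 5 on both sides. Atf4 itself had levels of 9.13 and 9.03 at 12 h, 9.29, 9.27 and 9.14 at 24 h, and 10.33 and 10.25 at 96 h, a rise of 1.12 ± 0.08 (2.17-fold, adjusted p = 9.64e-05). Ddit3, the stress factor CHOP, read 5.92 and 5.74 at 12 h, 6.22, 5.53 and 5.93 at 24 h, and 8.55 and 8.20 at 96 h, 5.68-fold higher (adjusted p = 0.000108). Psat1, an enzyme of serine synthesis, read 10.85 and 11.00 at 12 h, 10.71, 10.80 and 11.07 at 24 h, and 9.28 and 9.51 at 96 h, a fall of 1.49 ± 0.11 (adjusted p = 0.000121). In each of these genes the sides did not overlap, as in nearly all called genes.

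Sorted by role after their values were seen, the 7 risen members were Atf4, Ddit3, Atf3, Atf5, Nupr1, Ppp1r15a and Sesn2, which encode transcription factors and other stress regulators. The 10 fallen members were Psat1, Phgdh, Psph, Shmt2, Mthfd2, Asns, Cth, Aldh18a1, Gpt2 and Pck2, enzymes of amino acid, one-carbon and linked metabolism. Cth, which makes cysteine, stood 1.07 above the short arrays at 48 h and 1.77 below them at 96 h. The list's median was 0.63 above the short side at 48 h and 0.64 lower at 96 h than at 48 h, where 2 members were called higher and 12 lower. Without 96 h replicate 1 the fallen members against the short side numbered 6. The 18 aminoacyl-tRNA synthetase genes, which charge tRNAs with amino acids, had 7 lower and 0 higher, with a median of -0.29, and 8 lower against 48 h. The 7 were 38.9% of the list, against 10.4% of all genes tested called lower, and 0 of the 18 lay under 5 on both sides. Vars, the valyl synthetase, fell by 0.85 ± 0.09 and Hars, the histidyl one, by 0.48 ± 0.07. The 7 lower synthetases numbered 2 without 96 h replicate 1 and 4 without replicate 2.

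Lysosome and autophagy genes were higher, with 60.5% of the list called higher against 11.6% of all genes tested, and 8 of 43 under 5 on both sides. Of 43 measured, 26 rose and 0 fell, with a median of 0.58, and the risen ones numbered 15 without 96 h replicate 1. Sqstm1, the autophagy receptor p62, read 10.60 and 10.40 at 12 h, 10.29, 10.53 and 10.60 at 24 h, and 12.04 and 12.09 at 96 h, a rise of 1.59 ± 0.09 (3.0-fold, adjusted p = 4.16e-05). Hexa, a hexosaminidase, rose by 1.40 ± 0.12, and Ctsb, the protease cathepsin B, by 1.07 ± 0.10. The E-box letters CACGTG, the core of the element through which lysosomal genes are known to be co-regulated, occurred in the promoter windows of 13 of 38 of these genes (34.2%) and of 9.5% of all genes. They also occurred for 4 of 16 cholesterol genes (25%) and 4 of 48 mitosis genes (8.33%). Both 96 h arrays of Sqstm1, Hexa and Ctsb lay above all 5 short arrays, as in nearly all genes called higher. Leaving out 24 h replicate 2 gave 1 lysosome or autophagy gene called lower.

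**Figure D4:**
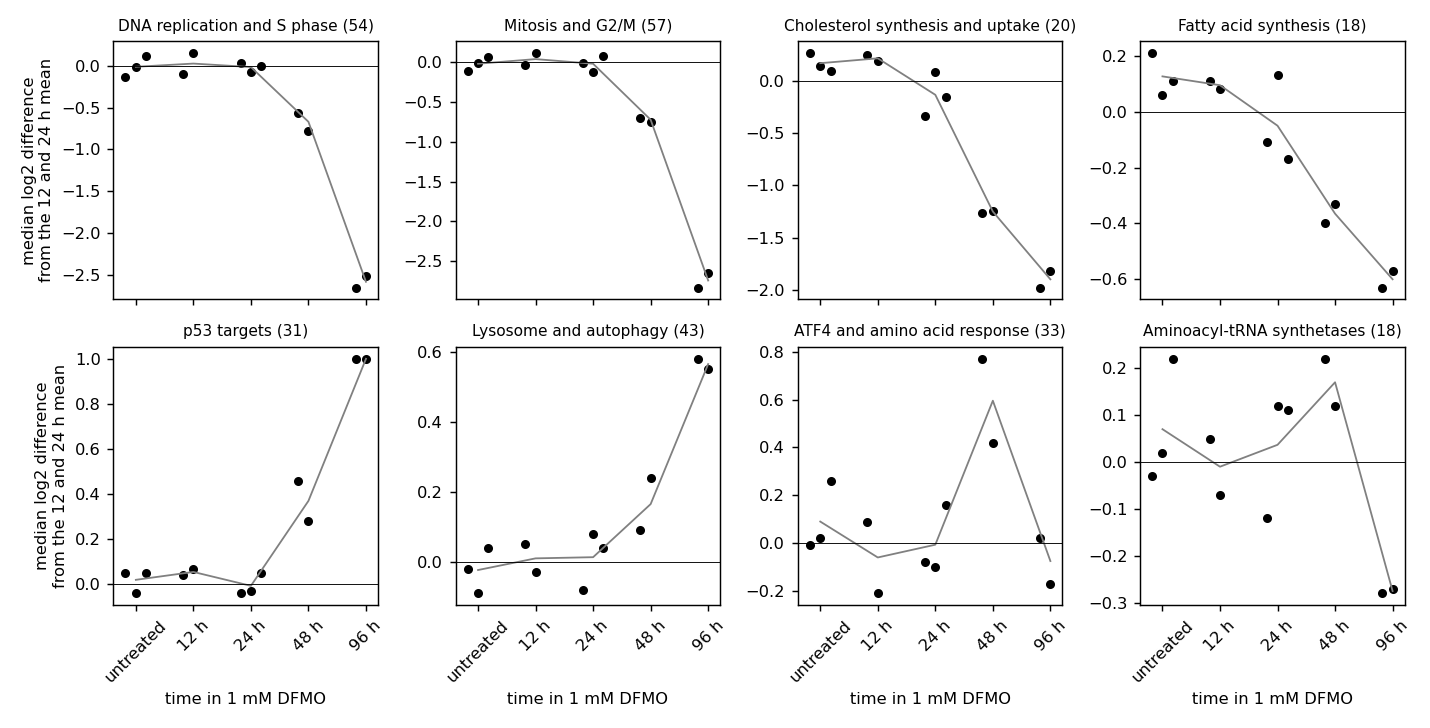
Median over the members of 8 gene lists (panels, number measured in brackets) of the log2 difference from the mean of the 12 h and 24 h arrays, for each of the 12 arrays (points) with group means (lines), by time in 1 mM DFMO. Replication and mitosis drop chiefly after 48 h, cholesterol has most of its fall by 48 h (-1.26 and -1.24, then -1.98 and -1.82), and the ATF4 list is high at 48 h (0.77 and 0.42) and back near 0 at 96 h (0.02 and -0.17).

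Antioxidant genes under the factor NRF2 gave 5 higher and 9 lower of 30, with a median of -0.21. That is 46.7% called, against 22% of all genes tested, with 4 of the 30 under 5 on both sides. Nqo1, a quinone reductase and common marker of NRF2 activity, read 9.07 and 9.11 at 12 h, 9.22, 8.57 and 9.14 at 24 h, and 6.31 and 6.20 at 96 h, a fall of 2.77 ± 0.17 (6.82-fold, adjusted p = 4.43e-05). Tkt, the transketolase of the pentose phosphate pathway, fell by 1.41 ± 0.07. Hmox1, heme oxygenase, rose by 1.53 ± 0.18. The 5 risen members numbered 2 without 96 h replicate 1 and 3 without replicate 2.

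The called clock genes and genes of resting cells were higher at 96 h. Of 17 circadian genes 6 rose and 0 fell (35.3% called, against 22% of all genes tested), with a median of 0.42. Of the 17, 3 lay under 5 on both sides, against 11244 of all 19938 genes, so the 22% is a low yardstick here. Leaving out 24 h replicate 2 gave 1 clock gene called lower. Nr1d1, the repressor REV-ERB alpha, read 7.06 and 7.13 at 12 h, 7.76, 7.49 and 7.55 at 24 h, and 9.52 and 9.16 at 96 h, a rise of 1.94 ± 0.20 (adjusted p = 0.00057). Bhlhe41 and Dbp, both transcription factors of the clock's output, rose by 2.26 ± 0.19 and 1.76 ± 0.18. The hour of the day at collection is not stated in the labels. Of 14 growth arrest and thioredoxin-interacting genes 4 rose and 0 fell (28.6% called), and 4 of the 14 lay under 5 on both sides. Txnip, a brake on glucose uptake, was 1.74 ± 0.23 higher and Pdk2, a kinase that restrains pyruvate oxidation, 0.98 ± 0.07 higher.

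Matrix genes changed in both directions, and the called targets of SRF, YAP and TGF-beta were lower. Of 52 matrix genes 9 rose and 5 fell (median 0.04), 26.9% in all, beside 22% of all genes tested. Of the 52, 14 lay under 5 on both sides, against 11244 of all 19938 genes. Col12a1, a fibril-associated collagen, rose by 1.69 ± 0.21 and Thbs1, thrombospondin, fell by 1.41 ± 0.22 with 96 h arrays at 9.51 and 8.55. Eln, elastin, spread from 6.90 to 10.30 on the short arrays, and its fall of 3.48 ± 0.83 lost its call without 96 h replicate 1 (-2.88, adjusted p = 0.179) or replicate 2 (-4.08, 0.066). The 5 fallen matrix genes numbered 3 without either of those arrays. Of 26 target genes of SRF, YAP and TGF-beta, which report tension and spreading, 7 fell and 0 rose. The fallen ones were 26.9% of the list, and 10.4% of all genes tested were called lower. Of the 26, 4 lay under 5 on both sides. The fit of genes with a mean of at least 5 on 1 side called 2216 higher and 2120 lower of 8694. Cnn2, a calponin, was 1.12 ± 0.12 lower. On this list the 96 h arrays disagreed, with medians of -0.04 and -0.57 from the short mean, and the fallen members numbered 3 without replicate 2. Without that array or without 24 h replicate 1, 1 member was called higher.

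Lists of growth factor, immediate early and chemokine genes gave similar numbers in each direction, and interferon genes gave more higher than lower. The share called was 43.5% of growth factors and receptors, 28.6% of insulin-like growth factor genes and 30% of immediate early genes. It was 16% of chemokine genes and 28.6% of interferon genes, against 22% of all genes tested. Under 5 on both sides lay 7 of 23 growth factors and receptors, 5 of 14 insulin-like growth factor genes and 7 of 30 immediate early genes. Of all 19938 genes 11244 did, so 22% is a low yardstick for these lists. Of the 28 interferon genes 18 lay under 5 on both sides, among them Ifit3, called higher with means of 3.63 and 4.24. Of the 25 chemokine genes 16 lay under 5 on both sides. Of 23 growth factors and receptors 5 rose and 5 fell, with Pdgfa, a platelet-derived growth factor, 1.14 ± 0.12 higher and Hbegf, a ligand of the EGF receptor, 1.54 ± 0.19 lower. The 5 risen numbered 2 without either 96 h replicate and 3 without 24 h replicate 1, and the 5 fallen 3 without 96 h replicate 2. Of 14 insulin-like growth factor genes 2 rose and 2 fell (1 without 96 h replicate 1). Igf2r, the receptor that carries enzymes to lysosomes, rose by 2.04 ± 0.21, and Igfbp7, a binding protein, fell by 1.24 ± 0.14. Of 30 immediate early genes 5 rose and 4 fell, with Ier5 1.00 ± 0.15 higher and Maff 0.68 ± 0.11 lower. Leaving out 24 h replicate 3 gave 3 and 2, leaving out 96 h replicate 1 gave 2 and 2, and leaving out 96 h replicate 2 gave 1 lower. Of 25 chemokine and inflammatory genes 2 rose and 2 fell, 1 and 1 without 96 h replicate 1 and 1 and 0 without replicate 2, with Cxcl12, a stromal chemokine, 1.28 ± 0.15 higher. Of 28 interferon and antigen presentation genes 7 rose and 1 fell, with Tap1, a peptide transporter, 1.41 ± 0.19 higher and the risen ones numbering 4 and 2 without 96 h replicates 1 and 2.

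Polyamine genes changed little beside these groups. Odc1, the gene of the drug's target, read 9.47 and 10.08 at 12 h, 9.81, 9.56 and 9.85 at 24 h, and 9.08 and 8.98 at 96 h. Both 96 h arrays lay below all short arrays, and the log2 fall was 0.72 ± 0.16 (1.65-fold, adjusted p = 0.0147). It was no longer called without 96 h replicate 1 (-0.77, adjusted p = 0.0779) or replicate 2 (-0.68, 0.106). Of 24 measured, 7 fell and 1 rose (33.3%, against 22% of all genes tested), with a median of -0.02. Few lay at the floor, with 4 under 5 on both sides, against 11244 of all 19938 genes. The fit of genes with a mean of at least 5 on 1 side called 2216 higher and 2120 lower of 8694. Enoph1, an enzyme of methionine salvage, fell by 0.70 ± 0.10 and Eif5a, the factor that carries hypusine, by 0.36 ± 0.06, and these 2 kept their calls in every alternative run. Azin1, an antizyme inhibitor that protects ornithine decarboxylase, fell by 0.35 ± 0.09 to a mean of 10.19, against 10.54 on the short arrays and 10.09 in untreated cells.

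The other calls in the polyamine list were weaker. Smox, spermine oxidase, fell by 1.06 ± 0.29 (adjusted p = 0.0371), and Mri1 and Apip, both of methionine salvage, fell by 0.50 ± 0.14 and 0.56 ± 0.16. Atp13a2, which pumps polyamines out of lysosomes, rose by 0.41 ± 0.09, and by 0.27 (adjusted p = 0.156) without 96 h replicate 1. Oaz2, an antizyme gene, read 5.65 and 6.17 at 12 h, 5.09, 5.11 and 5.19 at 24 h, and 4.54 and 4.83 at 96 h. Its 12 h arrays stood above its 24 h arrays, and its difference of -0.75 ± 0.30 was not called (adjusted p = 0.126). Srm, spermidine synthase, differed by 0.00 ± 0.12, Sat1, the acetyltransferase of polyamine breakdown, by -0.02 ± 0.11, Dhps, which starts hypusine formation, by 0.13 ± 0.08, and Dohh, which completes it, by -0.60 ± 0.18 (adjusted p = 0.0531). Smox, Mri1, Apip and Azin1 each lost their call without 12 h replicate 2, 24 h replicate 3 or either 96 h array, at adjusted p values of 0.0555 to 0.276. Smox also lost it without 12 h replicate 1 (0.0634) or 24 h replicate 2 (0.0649), and Mri1 and Apip without 12 h replicate 1 (adjusted p = 0.0702 and 0.0505) or 24 h replicate 1 (0.0699 and 0.0721). The 7 fallen members numbered 4 without 12 h replicate 1, 3 without 12 h replicate 2, 4 without 24 h replicate 3, and 2 without either 96 h array. Of the 31 genes on the list, 7 were not measured here, among them Oaz1, Amd1 and Sms.

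Called genes of energy metabolism and protein handling moved by smaller steps, with more lower than higher in each list in the main fit. Called lower were 45.5% of chaperone, 24% of endoplasmic reticulum, 25.6% of ribosome biogenesis and 26.9% of glycolysis genes. Over all genes tested 10.4% were called lower and 11.6% higher. The fit of genes with a mean of at least 5 on 1 side called 2120 lower and 2216 higher of 8694. Most members of these lists were above that level. Of 22 cytosolic chaperone genes 10 fell and 0 rose (median -0.25, 5 without 96 h replicate 1), with Fkbp4, a co-chaperone of Hsp90, 1.12 ± 0.07 lower and Hspd1, the mitochondrial Hsp60, 0.69 ± 0.07 lower. Leaving out 24 h replicate 2 gave 1 chaperone gene called higher. Among folding genes of the endoplasmic reticulum, Pdia6, a disulfide isomerase, was 1.03 ± 0.12 lower and Atf6, a sensor of unfolded protein, 0.61 ± 0.10 higher. Of the 25 on that list 6 fell and 3 rose, with a median of 0.01 and 13 differences positive against 12 negative. Without 96 h replicate 1 these numbered 2 and 1, and without replicate 2 the risen ones numbered 1. Of 43 ribosome biogenesis genes 11 fell and 4 rose, with Lyar, a nucleolar factor, 1.38 ± 0.13 lower and Ncl, nucleolin, 0.49 ± 0.06 lower. The 11 numbered 5 without either 96 h array. The 4 risen ones numbered 2 without 96 h replicate 1, 24 h replicate 3 or either 12 h array.

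Carbon use gave a similar count. Among 26 genes of glycolysis and the hypoxia response 7 fell and 2 rose, with Pgk1, a glycolytic kinase, 0.68 ± 0.07 lower and Eno2, an enolase, 0.71 ± 0.08 higher. The 7 numbered 3 without either 96 h array, and the 2 numbered 1 without 96 h replicate 1, either 12 h array, or 24 h replicate 2 or 3. Respiratory chain genes were mostly well above the floor, with 1 of 32 under 5 on both sides, against 11244 of all 19938 genes. In a fit of only the genes with a mean of at least 5 on 1 side, 1 respiratory gene was called higher and 9 lower. That fit called 2216 higher and 2120 lower of 8694 genes. In the main fit 5 of the 32 fell and 2 rose, 21.9% in all, beside 22% over all genes, those at the floor included. Leaving out 96 h replicate 2 left 0 and 0 of these, and leaving out 96 h replicate 1 left 2 and 0. The 5 numbered 2 without 12 h replicate 2 or 24 h replicate 3, and the 2 numbered 1 without 12 h replicate 2 or any 24 h array.

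The cells kept the transcripts of fibroblasts on both sides. The 16 fibroblast markers had a median level of 9.91 on the short arrays and 10.02 at 96 h, with 2 higher and 4 lower. That is 37.5% called, against 22% of all genes tested, with 1 of the 16 under 5 on both sides. Thy1, a surface marker of fibroblasts, read 8.32 and 8.33 at 12 h, 8.24, 8.12 and 8.50 at 24 h, and 5.95 and 5.99 at 96 h, a fall of 2.33 ± 0.09 (5.03-fold, adjusted p = 6.05e-06). Fn1, fibronectin, rose by 0.76 ± 0.12. The counts were 1 and 1 without either 96 h array, and 1 higher without 24 h replicate 1.

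Most markers of other cell types lay near the floor, with short means under 5 for all but Krt14, Lpl and Tubb3. The share called was 5.26% of leukocyte, 16.7% of epithelial and endothelial, 7.14% of adipocyte and 15.4% of myocyte and neural markers. Over all genes tested it was 22%. Of 19 leukocyte markers, 18 were under 5 on both sides, and 1 was called higher (0 without 96 h replicate 2). That was Lyz2, lysozyme, at 4.35 and 5.45 at 12 h, 4.12, 4.57 and 4.76 at 24 h, and 6.01 and 6.49 at 96 h, whose rise of 1.60 ± 0.33 was 1.36 (adjusted p = 0.11) without that array. Cd3e, Cd4 and Cd68, which define T cells and macrophages, stood at 3.80, 3.64 and 4.05 on the short arrays and 3.93, 3.75 and 3.78 at 96 h. For Cd3e and Cd4 both 96 h arrays lay above all short arrays, with differences of 0.13 and 0.11 that were not called (adjusted p = 0.181 and 0.186). The list's median difference from the short mean was 0.06 and 0.02 on the 96 h arrays. What part other cell types have in the rises of Cd80, Gpnmb and Lyz2 was not tested. Of 18 epithelial and endothelial markers 2 rose and 1 fell. Krt14, a basal keratin, fell from 8.49 to 7.01, Cdh1, E-cadherin, rose from 4.05 to 4.62, and Tek, an endothelial receptor, from 3.40 to 3.71. Of 14 adipocyte markers 1 rose, Plin4, a lipid droplet protein, from 4.28 to 4.80 (not called without 96 h replicate 2). Lpl, lipoprotein lipase, stood at 7.81 on the short arrays and 7.30 at 96 h, a difference that was not called (-0.50, adjusted p = 0.0629) but was called without 24 h replicate 2 (-0.56, 0.0378). Of 13 myocyte and neural markers 1 rose (Des, desmin, 3.62 to 4.52) and 1 fell. The latter, the neural tubulin gene Tubb3, was not called without 12 h replicate 1, 24 h replicate 3 or either 96 h array (adjusted p from 0.0517 to 0.198).

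The 48 h arrays, which took no part in the comparison, show how far each change had gone by then. They lay between the sides for 846 of the genes called higher (36.4%) and 916 of those called lower (44.2%). They lay within the short range for 482 (20.8%) and 383 (18.5%), overlapped the 96 h arrays for 157 and 158, lay beyond them for 9 and 9, and lay beyond the short side in the other direction for 16 and 14. For the remaining 812 and 591 genes the 2 arrays of 48 h straddled an edge of the short range. Among those within the short range, Nr1h5, of the nuclear receptor family, read 6.80 and 6.65 at 48 h, against 6.56 to 7.53 on the short arrays and 4.04 and 4.28 at 96 h, a fall of 2.86 ± 0.24. H1f2 read 5.04 and 5.29 at 48 h, against 4.81 to 5.45 and then 7.83 and 7.71. At 48 h these genes still stood at short-exposure levels, whereas Idi1, at 8.71 and 8.52, was already well below the short side at 48 h, with means of 10.33, 8.61 and 7.43 in order of time.

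A difference that shares no array with the main one gave mostly the same directions. For 48 h minus untreated, 1932 of the 2322 genes called higher had a positive difference (83.2%, against 41.4% of all genes tested), and 1750 of the 2071 called lower had a negative one (84.5%, against 58.6%). Without 96 h replicate 1 the first number was 1175 of the fewer genes then called, and without replicate 2 the numbers were 1285 and 1104. Across genes, which are not independent replicates, the 2 differences correlated at r = 0.65 over all 19938 genes and 0.79 over the 4393 called. The differences were smaller at 48 h: genes called higher by at least 2-fold had a median of 1.24 at 96 h against the short side and 0.50 at 48 h against untreated cells. For those called lower the medians were -1.52 and -0.57. The short side itself stood at medians of 0.05 and -0.01 from untreated cells for these genes.

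**Figure D5:**
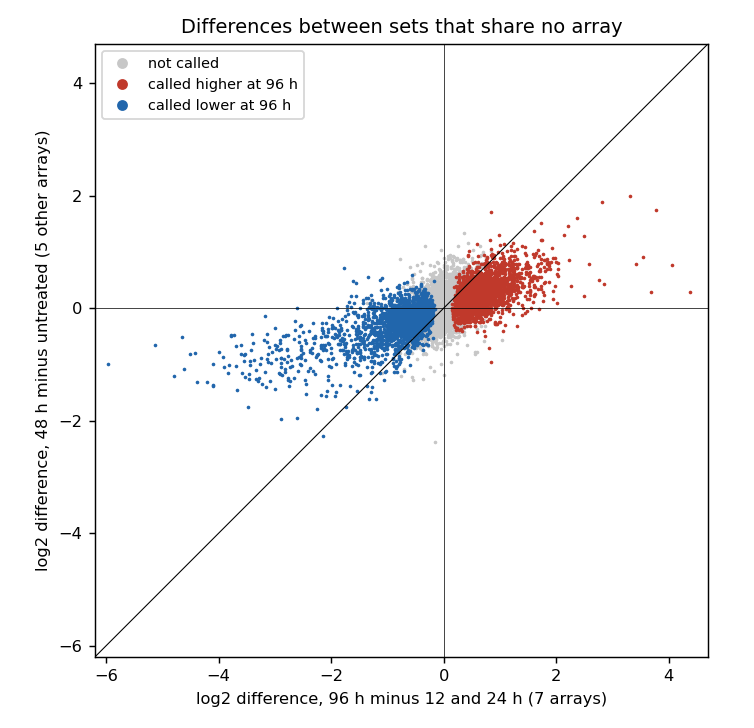
Log2 difference between 48 h and untreated cells (vertical axis, 5 arrays) against the difference between 96 h and the 12 h and 24 h arrays (horizontal axis, the other 7 arrays) for 19938 genes, with red called higher and blue called lower at 96 h, and the diagonal marking equal differences. Most coloured points lie at the lower left and upper right and nearer the horizontal axis than the diagonal, with medians of -0.57 against -1.52 for genes at least 2-fold lower.

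Against 48 h directly, limma called 661 genes higher (3.32%) and 698 lower (3.5%) at 96 h. This comparison shares the 96 h arrays with the main one, so its values are only set beside it. Of its 661 and 698 genes, 648 (98%) and 678 (97.1%) were also called in the same direction against the short side, which is 27.9% of the genes called higher there and 32.7% of those called lower. Replication genes had a median of -1.84 against 48 h with 47 of 54 lower, and mitosis genes one of -1.87 with 54 of 57 lower. Cholesterol genes had a median of -0.59 with 8 of 20 lower, p53 targets one of 0.56 with 13 of 31 higher, and lysosome genes one of 0.37 with 10 of 43 higher. Mcm5 fell by 3.75 ± 0.09 from 48 h to 96 h (adjusted p = 7.63e-06), and Idi1 by 1.18 ± 0.12 (adjusted p = 0.00224). With 2 arrays on each side the counts are fragile: leaving out 48 h replicate 1 gave 155 higher and 265 lower, 48 h replicate 2 gave 276 and 389, 96 h replicate 1 gave 255 and 384, and 96 h replicate 2 gave 296 and 340.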

How the data were processed

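Total RNA was measured on 12 whole-transcript mouse arrays (MoGene ST). The authors deposited 1 table of log2 values per transcript cluster, made with RMA and Partek of unstated version, per the submitters' processing notes. RMA normalises by quantiles, which hides a shift of all genes 1 way, and leaves background in the values. The deposited log2 values ran from 2.53 to 13.18, with array medians of 4.13 to 4.20. The number of arrays limits the precision.

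Clusters were named from the platform annotation: 21789 of 35399 had 1 symbol, 1621 several and 11989 none. For 21698 the Entrez identifier was found in RefSeq's GRCm38.p6 table. For 999 genes with several clusters the one with the highest mean was kept, which left 19938 genes. The labels name no genome build for the array, and promoter coordinates are RefSeq's.

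limma 3.58.1 in R 4.3.3 (lmFit and eBayes with default settings) compared 1 mean of 2 arrays with 1 mean of 5, without a block. 24 h against 12 h used the same 7 arrays with 1 mean per time, and 96 h against 48 h the 9 treated arrays. p-values are two-sided, adjusted by Benjamini and Hochberg over all 19938 genes. The fit was tested on 10 runs of simulated data with 200 changed genes. It recovered 31.6% of 1.25-fold, 65.8% of 1.5-fold, 86.4% of 2-fold and 99.4% of 4-fold changes, with 9.2 false calls on average. A gene that was not called may therefore still have changed by a small amount.

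The comparison, the 31 lists (830 of 891 members measured) and the rule for named genes were chosen with earlier results of these data known, so lists carry counts and medians and no test. The rule named the 10 largest rises and falls among called genes whose 96 h arrays both lay beyond all 5 short arrays. The lack of overlap in those genes was thus set by the rule. It also named 3 members of smallest p per list, the strongest opposite member and the polyamine genes. Last came 3 each way among genes near untreated levels, unmoved at 48 h, or differing between 24 h and 12 h. Unnamed gene models would have been skipped, and 0 of the largest were such. Replicate numbers were checked as pairs: deviations from the time means correlated at 0.15 for 12 h with 96 h and at 0.04 and 0.02 for 24 h with 96 h. With 2 shared numbers the check cannot show pairing. Alternatives changed the arrays fitted, the short side, the variance model, array weights, centring, a filter at log2 5, the clusters used and the block. Motifs and figures used Python 3.11.15, pandas 2.3.3 and matplotlib 3.10.9.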

Additional observations from a re-analysis of the deposited data

Results flagged for a closer look

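In 5 of the 154 named genes, 1 of the 5 short arrays stood apart from the other 4 by more than Dixon's 95% limit, where chance alone gives about 1 in 20. Sulf2 was low on 24 h replicate 1, at 4.59 against 4.89 to 5.01 on the others. Noc3l, a nucleolar protein, was low on 12 h replicate 1, at 8.14 against 8.35 to 8.41. Nqo1 was low on 24 h replicate 2, at 8.57 against 9.07 to 9.22. Plau, the urokinase gene, was high on 24 h replicate 2, at 7.22 against 6.48 to 6.64. Pik3r3, a regulatory subunit of PI3 kinase, was high on 12 h replicate 1, at 6.31 against 5.70 to 5.83. In each of the 5 genes both 96 h arrays lay beyond all 5 short arrays, as in nearly all called genes (2321 of 2322 higher and all 2071 lower).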

How the results depend on the processing

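With 1 array left out in turn, genes called at 96 h against 12 h and 24 h numbered 1329 to 2296 higher and 1237 to 2150 lower, and 1034 and 1007 genes were called in all 7 such fits. The called genes with the same sign at 48 h against untreated cells then numbered 1175 to 1927 higher and 1104 to 1797 lower. For 96 h against 48 h the counts were 155 to 296 higher and 265 to 389 lower. A side left with 1 array is assumed to vary like the others. With the replicate block, counts were 2036 higher and 1850 lower for the main comparison and 720 and 733 against 48 h. Other alternatives gave 1584 (12 h alone as the short side) to 2734 (all clusters) higher and 1511 to 2574 lower, none over 1.5 times from the main counts. Centring each array on its median gave 2088 higher and 2247 lower. For 24 h against 12 h every fit called 0 genes. Without 12 h replicate 2 and 24 h replicate 3, whose deviations correlated at 0.21, the counts were 2035 and 1788. Of 122 called genes among the 154 named, 95 kept their call under every setting, 27 lost it with some array left out, and 0 changed sign. With 12 h alone as the short side, fallen synthetases and SRF targets numbered 3 each, and risen interferon genes 3. Low genes are limited by background: 542 of the genes called higher had a short mean under 5.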

Other observations

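For a small set of called genes, the 96 h mean lay among the untreated arrays. It lay within the range of the 3 untreated arrays for 46 of the 2322 genes called higher and 48 of the 2071 called lower. Banp, a nuclear matrix protein, ranged from 5.56 to 6.44 in untreated cells and had means of 5.40 on the short arrays and 6.31 at 96 h. Atrx, a chromatin remodeller, ranged from 8.23 to 8.82, with means of 8.41 and 8.81. Stard3nl, a late endosome protein, ranged from 4.74 to 5.85, with means of 5.60 and 4.77, and Tmem243 from 7.58 to 8.40, with means of 8.42 and 7.76. Without 96 h replicate 1 the differences of Banp (0.59, adjusted p = 0.254), Atrx (0.50, 0.079), Stard3nl (-0.82, 0.131) and Tmem243 (-0.47, 0.232) were not called. Without 24 h replicate 3 none of these 4 was called either (adjusted p from 0.0513 to 0.0881). Further losses came without 12 h replicate 1 (Banp, Atrx and Tmem243), 12 h replicate 2 or 24 h replicate 1 (Atrx and Tmem243), 24 h replicate 2 (Banp) and 96 h replicate 2 (Atrx and Stard3nl).

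Between 24 h and 12 h, where no gene was called, the members of smallest p included Pimreg, a mitotic regulator, at means of 7.71 and 7.30 at 12 h and 24 h, and Pdk1, a kinase of pyruvate metabolism, at 6.21 and 5.71. Myd88, an adaptor of innate signalling, stood at 7.84 and 7.47, and Aig1 at 6.33 and 6.66. Myd88 and Aig1 were not called at 96 h against the short side, at -0.11 ± 0.13 and 0.30 ± 0.13, whereas Pimreg (-3.16 ± 0.15) and Pdk1 (-1.24 ± 0.19) were.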
